A study of Mus musculus with 7 samples.

Results

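MHC class I and peptide loading genes were compared between mature and immature bone marrow derived dendritic cells (BMDCs) of the mouse. The 10 genes were taken by their symbol in the deposited table, and all of them were found among its 28666 genes. They were the class I heavy chains H2-K1, H2-D1 and H2-T23, the light chain B2m, the peptide transporter subunits Tap1 and Tap2, the peptide editors Tapbp and Tapbpl, the peptide trimming enzyme Erap1 and the transcriptional activator Nlrc5. In the mature cells H2-T23, Tapbpl and Tap1 rose, by 1.74-fold, 1.68-fold and 1.22-fold, none of the 10 fell (23.2% and 22.9% of all genes tested were higher and lower), and none reached a 2-fold change together with an adjusted p under 0.05.

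MHC class I molecules show peptides from proteins made inside the cell to CD8+ T cells. Peptides cut by the proteasome are carried into the endoplasmic reticulum by the TAP transporter, trimmed there by Erap1, and fitted into a heavy chain paired with B2m with the help of tapasin and other chaperones. Mature dendritic cells are known for presenting peptides with costimulatory molecules and so for priming T cells, and NLRC5 is known as the activator of class I promoters.

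The study cultured bone marrow of young adult female C57BL/6 mice with GM-CSF and IL-4. The BMDCs were kept in Transwell co-culture with mouse colon tumour cells of the line MC38. They were then flow sorted into 3 immature and 4 mature samples. The study's design describes the glutamine antagonist DON as given to the tumour cells, and its glutamine-rich arm as also holding added glutamine. The sorted BMDCs are described as profiled after DON treatment, although the legend of the sorting scheme names the solvent DMSO or DON. By that description both groups shared the co-culture and DON, and they differ in sorted state, not in treatment. The surface markers of this sort were not given in the sources used here, although the study elsewhere used CD80 and CD86 for mature cells, and whether the samples came from separate cultures or animals was also not given, so p-values measure the spread between these samples, which may be technical.

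Total counts were 54846746 to 67973086 per library, so that counting error was small for every member, the lowest count of which was 1693. Mature replicate 3 stood apart from the other libraries. Across 17436 genes, its log2 ratio to the other mature libraries went down with the length of the gene's exons (Spearman's rho = -0.367, across genes, which are not independent replicates), and the summed FPKM (the authors' level per gene length and library size) was 381707 in it against 327714 to 337706 in the others. The members' results are therefore given with and without this library. Of the 8 dendritic cell markers, 6 rose and 1 fell. Cd80 was 25.3 to 28.8 CPM (counts scaled to a common library size) in immature and 149 to 155 in mature libraries. CD80 may itself have been a marker of the sort, so this difference is no independent check of it. Ccr7 was 200 to 203 in immature and 2310 to 2874 in mature libraries, while Itgax was 1288 to 1464 and 874 to 1144. All 5 macrophage markers fell, with a summed level of 713 to 727 CPM in immature and 145 to 170 in mature libraries. All 5 cardiac muscle markers rose, from 3.77 to 4.2 CPM in sum to 25.5 in mature replicate 1 and up to 421 in the other mature libraries. Summed granulocyte, T and NK cell and B cell markers were at most 2.94, 4.78 and 0.794 CPM in any library. Mpo and Ms4a1 were at 0 in 6 of 7 libraries. Epithelial markers summed to 65.7 to 71.7 CPM in immature and 57.2 to 63.7 in mature libraries. Most of this sum was Cdh1, at 50.7 to 57.8 and 47.3 to 54.2 CPM. Of the 4 epithelial markers 1 rose and 0 fell, with Epcam at 0.17 to 0.418 CPM in immature and 0.72 to 1.6 in mature libraries. The part of these cell types in the results was not tested, and in bulk samples fewer cells of a type and less RNA per cell cannot be told apart.

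Class I promoters are known for a composite element, read by the RFX and CREB factors and by NF-Y under the lead of NLRC5, and for an interferon response element. Promoters of 7 of the 10 genes, in 8 entries, were taken from RefSeq (GRCm38.p6), with no entry for Tap2, Tapbpl and Nlrc5. The 250 bases before the start were searched on both strands for TGACG (the core of the X2 box), CCAAT (the Y box) and GAAA, any 2 bases and GAAA again (the interferon response element). No match in the members overlapped another. These 4 promoters are shown because they belong to the heavy chains and light chain whose levels are compared here, and capitals mark the matches, with ATTGG the reverse strand of CCAAT and TTTCTCTTTC that of the interferon element. H2-K1 (the second of its 2 entries) is chr17:34000334-34000583 (minus strand), H2-D1 chr17:35262844-35263093 (plus strand), B2m chr2:122147437-122147686 (plus strand) and H2-T23 chr17:36032702-36032951 (minus strand).
H2-K1: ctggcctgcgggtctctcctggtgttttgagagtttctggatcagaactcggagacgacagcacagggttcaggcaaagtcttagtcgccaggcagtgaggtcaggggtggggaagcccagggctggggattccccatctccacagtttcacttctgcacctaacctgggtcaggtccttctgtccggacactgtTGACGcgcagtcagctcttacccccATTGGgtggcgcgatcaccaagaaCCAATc
H2-D1: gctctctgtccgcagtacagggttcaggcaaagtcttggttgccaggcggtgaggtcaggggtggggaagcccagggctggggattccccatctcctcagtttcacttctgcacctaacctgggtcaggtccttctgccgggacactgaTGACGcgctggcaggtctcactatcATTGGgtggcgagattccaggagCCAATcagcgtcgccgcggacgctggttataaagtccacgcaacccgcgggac
B2m: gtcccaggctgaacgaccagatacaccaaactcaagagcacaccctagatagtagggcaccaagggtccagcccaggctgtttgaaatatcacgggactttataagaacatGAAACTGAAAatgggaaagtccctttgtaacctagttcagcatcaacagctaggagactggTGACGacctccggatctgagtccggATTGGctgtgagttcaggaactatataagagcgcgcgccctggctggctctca
H2-T23: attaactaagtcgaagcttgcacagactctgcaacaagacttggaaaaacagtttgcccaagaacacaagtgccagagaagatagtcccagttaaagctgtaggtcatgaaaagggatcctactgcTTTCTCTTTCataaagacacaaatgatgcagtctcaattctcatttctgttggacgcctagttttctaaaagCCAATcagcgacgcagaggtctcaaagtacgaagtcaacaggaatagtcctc

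In H2-K1, H2-D1 and B2m, TGACG was followed by ATTGG with 20 bases between them, an arrangement in 30 of 32851 mouse promoters (0.0913%). This spacing was taken from these members, whose own promoters are among the 30, so the share is a description and tests nothing. H2-T23 had no TGACG in this window, and held CCAAT from -52 to -48 and the interferon element from -124 to -115. B2m held the interferon element from -139 to -130 and was among the 49 promoters (0.149%) with all 3 motifs. Singly, the motifs were in 17.8% (TGACG), 33.8% (CCAAT) and 2.98% (interferon element) of all promoters. Of the other members, Tap1 held TGACG and CCAAT, Tapbp held ATTGG at 2 places and Erap1 held none. These matches describe the letters only and are not evidence of binding. Only these exact letters were searched, so the lack of a match does not show that a variant of an element is absent.

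Of 17461 genes tested between the groups, 4047 (23.2%) were higher and 4006 (22.9%) lower in mature cells at an adjusted p under 0.05 (edgeR quasi-likelihood test, Benjamini-Hochberg adjustment over all genes tested). With a log2 fold change of at least 1 in size as well, 2300 (13.2%) were higher and 1737 (9.95%) lower. All 10 class I genes passed the filter on low counts, and 3 of 10 rose, near the background share, while 0 of 10 passed both criteria by edgeR, DESeq2 or limma (3, 5 and 6 had an unadjusted p under 0.05). Mature replicate 1, the mature library with the lowest sum of cardiac muscle markers, was above every immature library for the 3 genes that rose. That is a single library, and its sum was still above the immature ones, mostly through Tnni3. Myl2, Myl3, Actc1 and Mb were at 0.273 to 0.637 CPM in mature replicate 1. They were at 0 to 0.426 CPM in immature and 44.5 to 119 CPM in the other mature libraries. The part of cardiac muscle RNA in the rises was not tested. In 5 of 10 every mature library was above every immature one, against 25.4% of all genes tested, and in 0 of 10 every mature library was below, against 26.7%. Their median log2 fold change was 0.215, beside 0.0546 over all genes tested. For 9 of 10 the 95% interval of the log2 fold change lay within -1 and 1. Without mature replicate 3, 16954 genes were tested, of which 4936 (29.1%) were higher and 4796 (28.3%) lower, and 6 of the 10 rose, H2-K1, Tap2 and Nlrc5 being the added ones, with a median of 0.156.

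**Figure D1:**
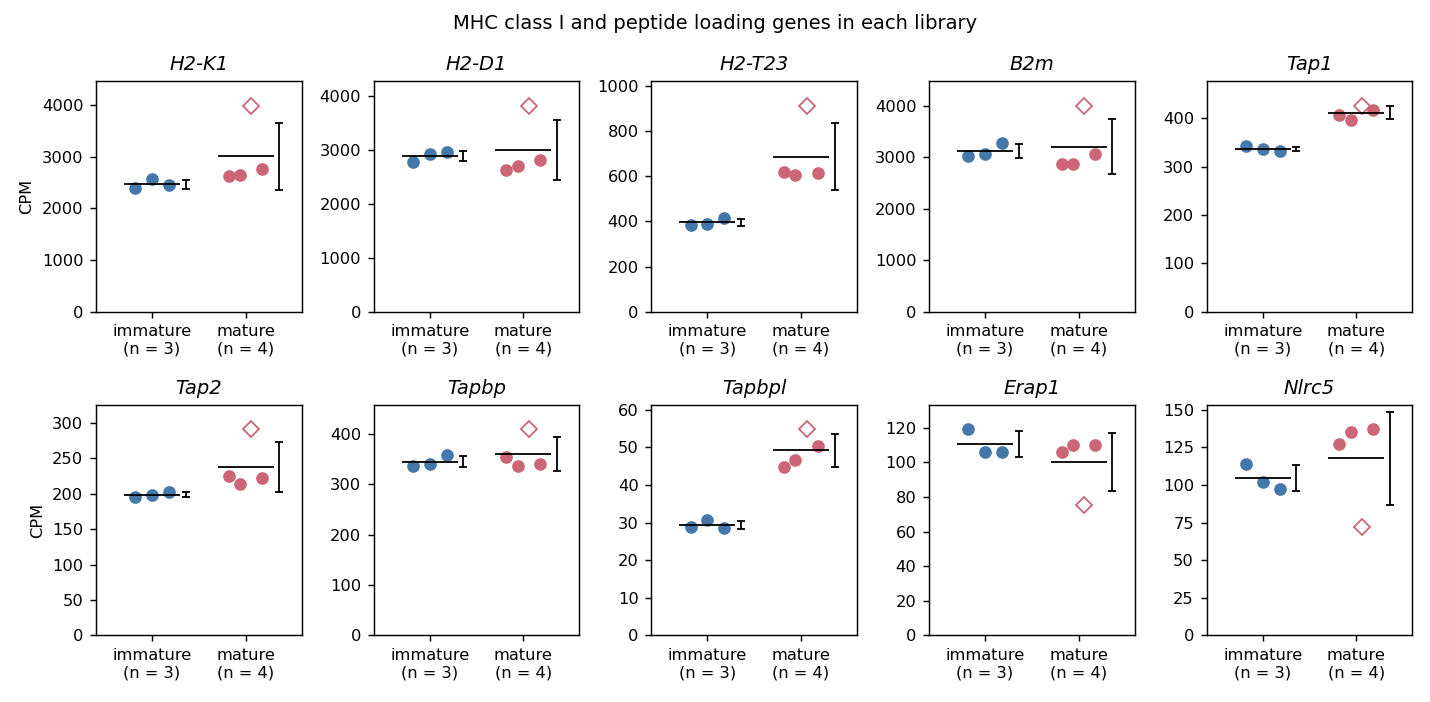
CPM on TMM-scaled library sizes (linear axis from 0) of each of the 10 genes in 3 immature (blue) and 4 mature (red) libraries, where the horizontal line is the group mean, the bar beside it 1 SD and the open diamond mature replicate 3. H2-T23, Tapbpl and Tap1 show separate groups, while mature replicate 3 is the highest mature library for 8 genes and the lowest for Erap1 and Nlrc5.

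H2-T23 encodes Qa-1, a class Ib heavy chain known to show leader peptides of other class I chains to NKG2A receptors. H2-T23 (ENSMUSG00000067212, chr17:36029773-36032855, minus strand, GRCm38) was at 384, 389 and 415 CPM in immature replicates 1 to 3 and at 618, 607, 913 and 613 CPM in mature replicates 1 to 4. The groups did not overlap, and mature replicate 3 was well above the other mature libraries. Its log2 fold change was 0.80 (SE 0.154, 95% interval 0.44 to 1.15, edgeR adjusted p = 0.00292), and 0.66 (SE 0.0469, edgeR adjusted p = 2.4e-06) without that library.

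H2-K1 and H2-D1 encode the classical heavy chains H-2K and H-2D, which show peptides to CD8+ T cells. H2-K1 (ENSMUSG00000061232, chr17:33996017-34000347, minus strand) was at 2397, 2568 and 2450 CPM in the immature libraries and at 2635, 2644, 3988 and 2759 CPM in the mature ones. Every mature value lay above every immature one, by little except in mature replicate 3. The log2 fold change of H2-K1 was 0.28 (SE 0.153, interval -0.07 to 0.63, edgeR adjusted p = 0.167), and without mature replicate 3 it was 0.14 (SE 0.0538, edgeR adjusted p = 0.0498), just inside the threshold. H2-D1 (ENSMUSG00000073411, chr17:35262730-35267499, plus strand) was at 2780, 2926 and 2959 CPM in immature and at 2630, 2707, 3822 and 2814 CPM in mature libraries. Its groups overlapped, and 3 of 4 mature libraries lay within or below the immature range. The log2 fold change of H2-D1 was 0.05 (SE 0.136, interval -0.26 to 0.36, edgeR adjusted p = 0.788), which turned to -0.06 (edgeR adjusted p = 0.347) without mature replicate 3.

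The heavy chains share sequence, and how reads that fit several genes were counted was not given in the sources used here. Of 50-base windows along the transcript (GENCODE M21), 28.8% of H2-T23, 14.3% of H2-D1 and 8.79% of H2-K1 were found exactly in another gene, falling to 0.831%, 1.79% and 0.0% for windows of 150 bases. When the counts of 17 H2 class I heavy chain genes were summed to 1 feature, it was at 6799, 7177 and 7067 CPM in immature and 8098, 8175, 11403 and 8365 CPM in mature libraries. The groups of this sum did not overlap, and its log2 fold change was 0.36 (edgeR adjusted p = 0.0532). In immature replicate 1, H2-D1 and H2-K1 gave 163204 and 140700 of its 399124 counts, and H2-T23 gave 22541. The sum is thus mostly other genes, and cannot show whether shared reads had a part in the difference of H2-T23.

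B2m, beta-2 microglobulin, is the light chain that all class I heavy chains above pair with. B2m (ENSMUSG00000060802, chr2:122147686-122153083, plus strand) was at 3018, 3067 and 3268 CPM in immature and at 2873, 2873, 3998 and 3065 CPM in mature libraries. The groups overlapped, with mature replicate 3 the highest library of all. Its log2 fold change was 0.04 (SE 0.128, interval -0.25 to 0.33, edgeR adjusted p = 0.831), and -0.06 (edgeR adjusted p = 0.387) without mature replicate 3, so that its direction rested on that library.

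Tap1 and Tap2 form the heterodimer that carries peptides into the endoplasmic reticulum. Tap1 (ENSMUSG00000037321, chr17:34187553-34197225, plus strand) was at 342, 336 and 333 CPM in immature and at 407, 396, 426 and 418 CPM in mature libraries. The groups did not overlap, and mature replicate 3 was close to its group. Tap1 rose by 0.29 on the log2 scale (SE 0.069, interval 0.13 to 0.45, edgeR adjusted p = 0.00836), and by 0.30 (edgeR adjusted p = 0.00033) without mature replicate 3. The gene overlaps Psmb9, an immunoproteasome subunit on the other strand with up to 10902 counts in a library, and whether the counting used strand was not given. Psmb9 rose as well, by 0.86 on the log2 scale (edgeR adjusted p = 0.0025), or 0.71 without mature replicate 3. Its part in the counts of Tap1 was not tested. Tap2 (ENSMUSG00000024339, chr17:34203527-34216321, plus strand) was at 196, 198 and 203 CPM in immature and at 225, 214, 291 and 223 CPM in mature libraries. Its groups did not overlap either, and again mature replicate 3 was the highest. The log2 fold change of Tap2 was 0.26 (SE 0.115, interval -0.003 to 0.52, edgeR adjusted p = 0.0974), and 0.17 (SE 0.0436, edgeR adjusted p = 0.0077) without mature replicate 3.

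Tapbp encodes tapasin, which holds empty class I molecules at the transporter, and Tapbpl encodes TAPBPR, a related editor that works apart from the transporter. Tapbpl (ENSMUSG00000038213, chr6:125223933-125231860, minus strand) was at 28.8, 30.6 and 28.6 CPM in immature and at 44.9, 46.7, 54.8 and 50.4 CPM in mature libraries. The groups did not overlap and lay far apart compared with their spread. Tapbpl rose by 0.745 on the log2 scale (SE 0.095, interval 0.53 to 0.96, edgeR adjusted p = 0.00026), and by 0.71 (edgeR adjusted p = 1.62e-05) without mature replicate 3. Tapbp (ENSMUSG00000024308, chr17:33915899-33926197, plus strand) was at 336, 341 and 358 CPM in immature and at 354, 336, 409 and 341 CPM in mature libraries. These groups overlapped, with mature replicates 1, 2 and 4 at 336 to 354 CPM and mature replicate 3 above every immature library. In FPKM, which is scaled otherwise, they did not overlap, at 82.01 to 84.34 in immature and 89.62 to 99.64 in mature libraries. Tapbp did not pass there either (limma on log2(FPKM + 1), adjusted p = 0.064). The log2 fold change of Tapbp in edgeR was 0.06 (SE 0.09, interval -0.14 to 0.27, edgeR adjusted p = 0.615), and 0.02 (edgeR adjusted p = 0.755) without mature replicate 3. The Tapbp locus overlaps Zbtb22 on the same strand, with up to 3038 counts, and that of Tapbpl overlaps Vamp1 on the other, with up to 800.

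Erap1 trims the amino ends of peptides in the endoplasmic reticulum. Erap1 (ENSMUSG00000021583, chr13:74639568-74693201, plus strand) was at 119, 106 and 106 CPM in immature and at 106, 110, 75.4 and 110 CPM in mature libraries. The groups overlapped, and mature replicate 3 was the lowest library. Its log2 fold change was -0.14 (SE 0.137, interval -0.45 to 0.18, edgeR adjusted p = 0.456), and 0.003 (SE 0.0567, edgeR adjusted p = 0.971) without mature replicate 3. The gene overlaps Cast on the other strand, which had up to 19900 counts.

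Nlrc5 (ENSMUSG00000074151, chr8:94434356-94527272, plus strand), the class I activator, was at 114, 102 and 97.4 CPM in immature and at 127, 135, 71.8 and 137 CPM in mature libraries. The groups overlapped only through mature replicate 3, the lowest of the 7 libraries, while the other 3 mature libraries were above every immature one. The log2 fold change of Nlrc5 was 0.17 (SE 0.208, interval -0.30 to 0.65, edgeR adjusted p = 0.537), and without mature replicate 3 it was 0.37 (SE 0.0656, edgeR adjusted p = 0.000975). The call on this gene thus turned on a single library.

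**Figure D2:**
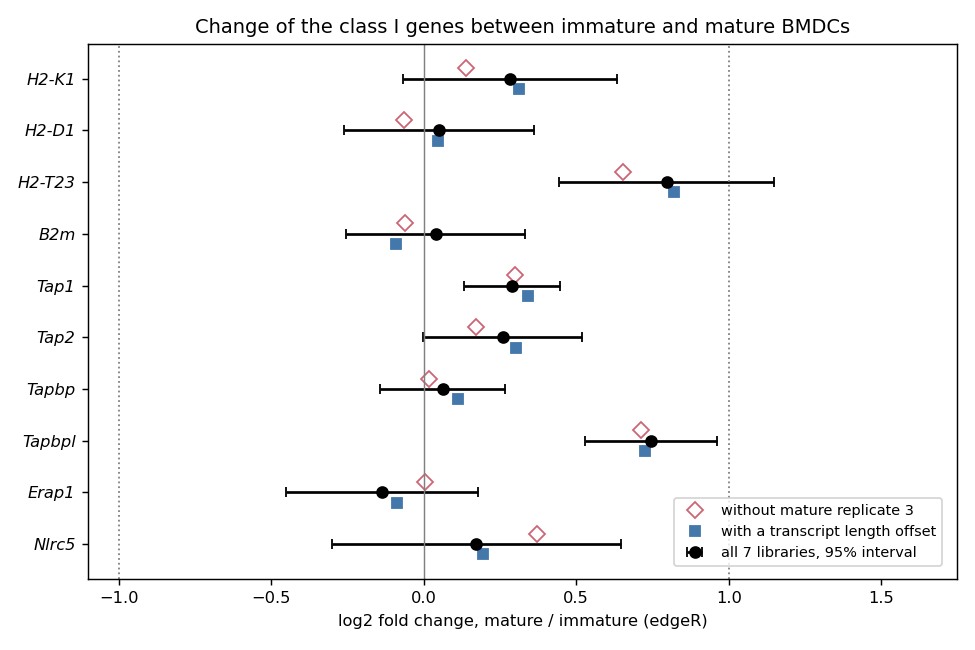
Log2 fold change of mature over immature (edgeR) for each of the 10 genes, with all libraries (black, bar showing the 95% interval), without mature replicate 3 (diamond) and with an offset for merged exon length (square), and dotted lines at -1 and 1. H2-T23 and Tapbpl lie furthest from 0 in all 3 fits, and H2-D1, B2m and Erap1 lie near 0.

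The shift of mature replicate 3 differed among the members. Its log2 ratio to the other mature libraries was 0.57 for H2-K1 (merged exon length 2938 bases), 0.575 for H2-T23 (2889 bases) and 0.445 for B2m (860 bases). It was -0.53 for Erap1 (7280 bases) and -0.89 for Nlrc5 (8493 bases), the longest of the 10. A loess curve through all genes gave 0.14, 0.14, 0.36, -0.23 and -0.29 for these genes in the same order, so these 5 members moved further than the curve. H2-D1, Tap2 and Tapbp did so too, at 0.49, 0.40 and 0.25 against 0.18, 0.046 and 0.063. Tapbpl lay at the curve (0.211 against 0.208), and Tap1 had the opposite sign to it (0.064 against -0.111). With the curve as an offset in edgeR, 4 of 10 members rose, against 25.8% of all genes higher and 24.8% lower in that fit, with H2-T23 at 0.82 (edgeR adjusted p = 0.000351), Tapbpl at 0.725 (2.67e-05), Tap1 at 0.34 (0.00296) and Tap2 at 0.30 (0.0285). The library's part in each result beyond this was not tested.

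**Figure D3:**
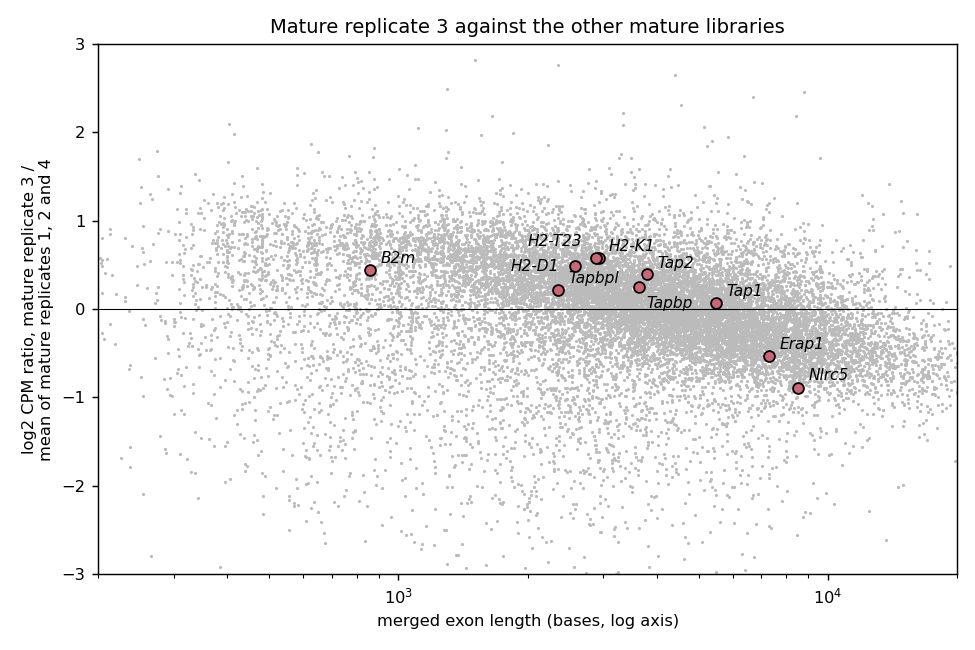
Log2 CPM ratio (pseudocount 0.1 CPM) of mature replicate 3 over mature replicates 1, 2 and 4, averaged, against merged exon length in bases (log axis) for 17436 genes, of which 259 lie outside the axes, with the 10 members labelled. Short genes sit mostly above 0 and long genes mostly below it, with Nlrc5 and Erap1 at the lower right.

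Per length, B2m was the most abundant member, with a mean of 3184 ± 70.8 FPKM in immature (SD, n = 3) and 3506 ± 408 FPKM in mature cells (SD, n = 4), the rank 12 and 13 among all 28666 genes. H2-D1 (984 ± 30.3 and 1092 ± 147 FPKM) and H2-K1 (740 ± 37.4 and 962 ± 159 FPKM) came next, and H2-T23 followed with 120 ± 2.55 and 224 ± 37.0 FPKM, moving from rank 361 to 193. Then came Tapbp, Tap1 and Tap2 in both groups, with means of 83.5, 54.1 and 46.3 FPKM in immature and 93.7, 71.2 and 59.4 FPKM in mature cells. Erap1, Tapbpl and Nlrc5 were the lowest, at 13.3, 11 and 10.8 FPKM in immature and 13.1, 19.7 and 13.2 FPKM in mature cells. In immature cells the ranges over libraries of neighbours in this order did not overlap, except those of Tapbpl and Nlrc5. In mature cells the ranges of H2-D1 and H2-K1 overlapped, although H2-D1 was above H2-K1 within each library, and so did those of Nlrc5 and Erap1. The 10 genes together took 0.93 to 0.976% of all counts in immature and 1.06 to 1.35% in mature libraries, with 1.35% in mature replicate 3.

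Ratios of members within a library do not depend on the scaling between libraries. The 5 ratios formed were chosen after their values were seen, and are given as a description with no test. H2-K1 to H2-D1 was 0.757, 0.77 and 0.727 in immature and 0.88, 0.858, 0.916 and 0.86 in mature libraries. H2-T23 to H2-K1 was 0.163, 0.154 and 0.172 in immature and 0.238, 0.234, 0.233 and 0.226 in mature libraries. The groups of both ratios did not overlap, mature replicate 3 included. B2m to the sum of the 3 heavy chains was 1.73, 1.66 and 1.79 in immature and 1.57, 1.55, 1.47 and 1.59 in mature libraries, and Tapbpl to Tapbp was 0.132, 0.138 and 0.123 against 0.196, 0.214, 0.206 and 0.228. These groups did not overlap either. Tap1 to Tap2 was 1.2, 1.17 and 1.13 in immature and 1.25, 1.28, 1.01 and 1.3 in mature libraries, so that its groups overlapped through mature replicate 3 alone.

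**Figure D4:**
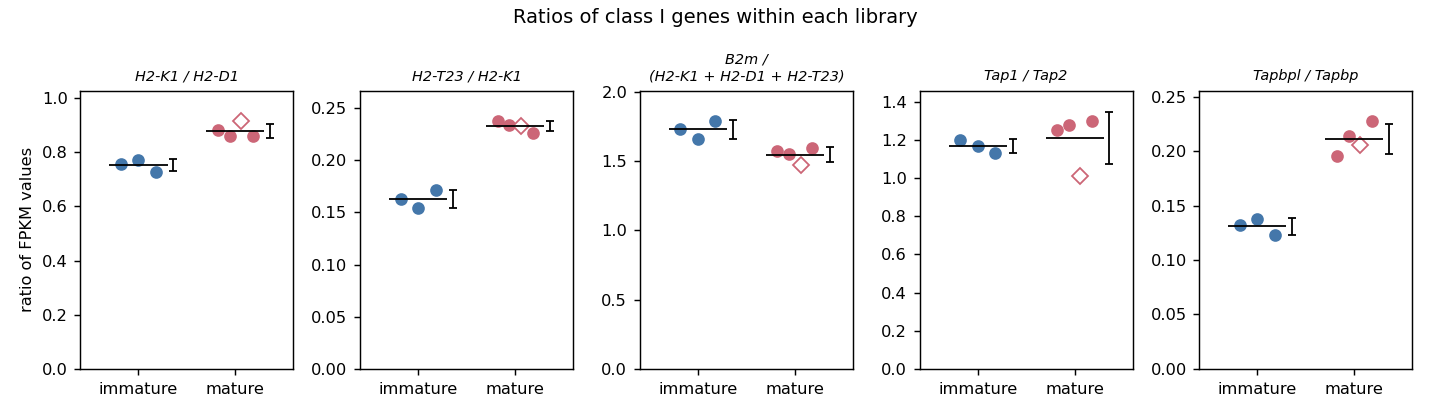
Ratio of FPKM values within each of 3 immature (blue) and 4 mature (red) libraries for 5 pairings of members, on linear axes from 0, where the line is the group mean, the bar 1 SD and the open diamond mature replicate 3. H2-K1 to H2-D1, H2-T23 to H2-K1 and Tapbpl to Tapbp are higher in every mature library, B2m to heavy chains is lower, and Tap1 to Tap2 overlaps through mature replicate 3 alone.

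The rest of the pathway was followed in 6 lists of 64 genes, 61 of which were tested, and 24 rose and 18 fell, with a median log2 fold change of 0.00393. The counts of each list below stand beside the 23.2% of all genes tested that were higher and the 22.9% that were lower, or 29.1% and 28.3% without mature replicate 3. Among other class I heavy chains 8 of 15 rose and 2 fell. H2-K2 was at 10.2, 9.78 and 8.55 CPM in immature and 30.5, 24.5, 40.3 and 26.7 CPM in mature libraries (log2 fold change 1.68, edgeR adjusted p = 9.3e-05). H2-T3 was not counted in any immature library and had 30, 53, 33 and 12 counts in mature replicates 1 to 4, at least 10.3-fold higher against a floor of 3 counts per library (edgeR adjusted p = 0.00192). Mr1, which shows vitamin B metabolites to MAIT cells, fell from 37.2, 34.3 and 34.8 CPM to 13.4, 14.6, 11.5 and 15.4 CPM (log2 fold change -1.36, edgeR adjusted p = 2.01e-05), and H2-T24 fell by 1.23 on the log2 scale (edgeR adjusted p = 0.0061), or by 0.99 without mature replicate 3. Chosen after their values were seen, the Qa-2 chains H2-Q6 and H2-Q7 rose by 1.22 and 1.03 on the log2 scale, and they share sequence with H2-D1.

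The genes listed as peptide loading chaperones, which include general factors of the endoplasmic reticulum, were mostly lower in mature cells. Of 8 tested, 7 fell and none rose, with a median log2 fold change of -0.716, and all 8 fell without mature replicate 3. Hspa5, the chaperone BiP, was at 744, 696 and 655 CPM in immature and 351, 355, 419 and 361 CPM in mature libraries (log2 fold change -0.91, edgeR adjusted p = 6.06e-05). Uggt1, which checks the folding of glycoproteins, was at 195, 183 and 193 CPM against 112, 106, 81.9 and 109 CPM (-0.90, edgeR adjusted p = 0.000242). Calr and Pdia3, which sit with tapasin in the loading complex and are named after their values were seen, fell by 0.75 and 0.57 on the log2 scale. Erp29, the remaining gene, also named after its values were seen, did not pass (-0.08, edgeR adjusted p = 0.743).

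Of the 5 immunoproteasome and proteasome activator genes, which set the peptides cut in the cytosol, 4 rose. Psme2 was at 91.6, 108 and 87.0 CPM in immature and 191, 186, 370 and 206 CPM in mature libraries (log2 fold change 1.32, edgeR adjusted p = 0.00254). Psme1 was at 156, 162 and 160 CPM against 279, 271, 491 and 282 CPM (1.05, edgeR adjusted p = 0.00358), and was 0.82 without mature replicate 3, below the fold criterion. The remaining gene, Psmb10, named after its values were seen, was at -0.07 (edgeR adjusted p = 0.817), and fell by 0.34 (edgeR adjusted p = 0.00043) without mature replicate 3. Of the 7 peptide trimming enzymes of the cytosol and endosome, none rose and 2 fell, and 4 fell without mature replicate 3. Tpp2 fell by 0.58 on the log2 scale (edgeR adjusted p = 0.00704), and Lnpep had a log2 fold change of -0.415 (edgeR adjusted p = 0.134), or -0.21 (edgeR adjusted p = 0.00532) without mature replicate 3. The other gene that fell, Npepps, named after its values were seen, fell by 0.34 (edgeR adjusted p = 0.00624).

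Cross-presentation, the loading of class I with peptides of engulfed proteins, was followed in 10 genes, of which 2 rose and 5 fell. Ifi30, a reductase that opens disulfides of engulfed proteins, rose from 175, 181 and 187 CPM to 381, 424, 647 and 457 CPM (log2 fold change 1.40, edgeR adjusted p = 0.000225), and Rab27a, which directs vesicles, rose by 1.40 (edgeR adjusted p = 1.73e-05). Cybb, a subunit of the phagosomal NADPH oxidase that is also high in macrophages, fell from 740, 653 and 722 CPM to 107, 140, 132 and 164 CPM (log2 fold change -2.38, edgeR adjusted p = 2.46e-06). Wdfy4, known to be needed for cross-presentation in type 1 dendritic cells, fell by 1.34 on the log2 scale (edgeR adjusted p = 0.000102). Macrophage markers fell in the same libraries, as given above, and their part in these falls was not tested.

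Of 16 regulators of class I transcription, 10 rose and 2 fell (Nfyc and Irf2, named after their values were seen), with a median log2 fold change of 0.507. Irf8, an interferon regulatory factor of dendritic cell development, was at 106, 109 and 111 CPM in immature and 477, 448, 503 and 445 CPM in mature libraries (log2 fold change 2.11, edgeR adjusted p = 4.39e-07). Nfkb1 rose by 1.65 (edgeR adjusted p = 3.25e-06), and Rfx5, an RFX subunit that works with NLRC5 at class I promoters, rose from 17.8, 21 and 19.3 CPM to 51.1, 52.6, 34.8 and 50.0 CPM (1.28, edgeR adjusted p = 0.000193). Without mature replicate 3, 12 of 16 rose.

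**Figure D5:**
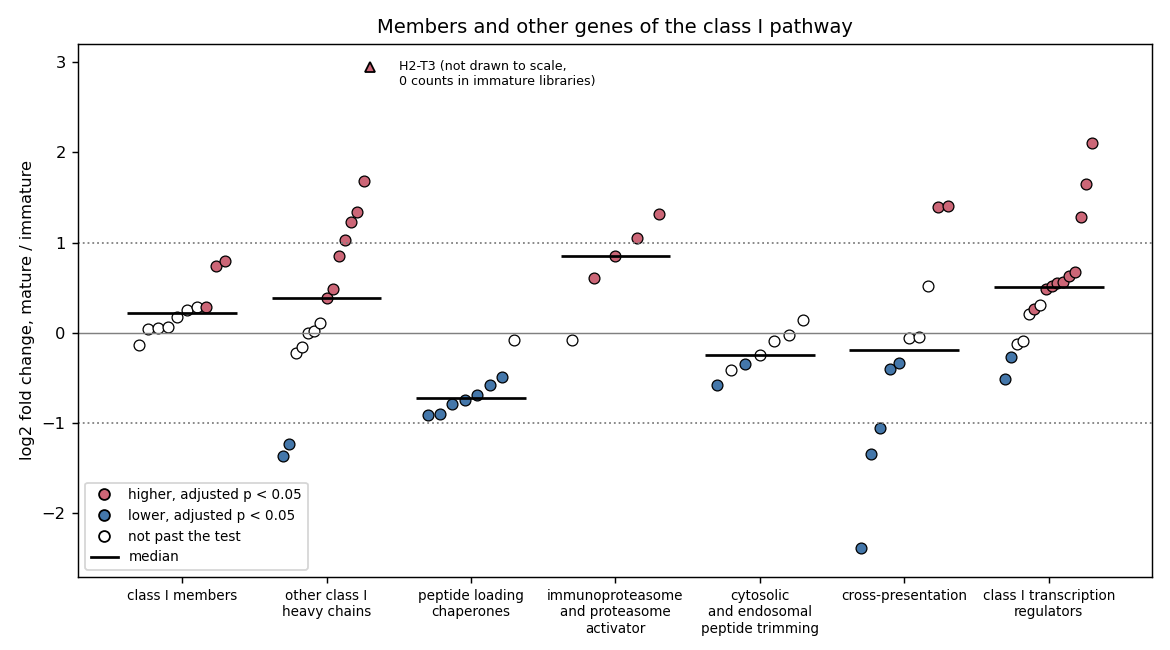
Log2 fold change of mature over immature (edgeR) of every tested gene in the members and in 6 wider lists, where red points were higher and blue points lower in mature cells at an adjusted p under 0.05 and open points did not pass, with the list median as a line and dotted lines at -1 and 1. Chaperones lie below 0 and immunoproteasome genes and regulators mostly above it, and H2-T3, with no count in immature libraries, is a triangle not drawn to scale.

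The genes most like H2-K1, Tap1 and Nlrc5 over the 7 libraries were sought among 6656 genes by Pearson's r of log2 CPM, given as a description. For H2-K1 they were Aarsd1 (r = 0.9975), Gm12918 (0.9968) and Rpl13a (0.9955), and all of them were highest in mature replicate 3. For Tap1 they were Mcl1 (0.9975), Anapc2 (0.9961) and Lipe (0.9955), which rose in mature cells. For Nlrc5 the gene with the highest r was Sptan1 (0.9899), which was lowest in mature replicate 3. The likeness to H2-K1 and Nlrc5 thus shared that library, and the libraries also shared their groups.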

How the data were processed

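RNA from 3 immature and 4 mature samples was sequenced as poly(A), strand-marked, paired-end libraries. The authors deposited raw counts per gene and FPKM (rounded to 2 decimals) in 1 table. The submitters' processing notes name cutadapt 1.9, HISAT2 2.2.1, StringTie 2.1.6, DESeq2, edgeR and the build mm9, without their roles, but 24940 of 28666 genes (87.0%) have the coordinates of GENCODE M21 (GRCm38), which was used here.

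Deposited counts were tested with edgeR 4.0.16 (quasi-likelihood, filterByExpr, TMM, R 4.3.3), with Benjamini-Hochberg adjustment over all genes tested. CPM values are on TMM-scaled library sizes. SE is the size of the log2 fold change divided by the root of F. Alternatives were DESeq2 1.42.0, limma 3.58.1 on log2(FPKM + 1) or log2(FPKM + 0.1) of genes at 1 FPKM or more in 3 libraries, other scalings, no filter, a length offset (loess, span 0.3), leaving out each library and a replicate block. Levels between genes are compared in FPKM only. On simulated counts with 200 genes changed 4-fold, edgeR recovered 200, with 10 false calls of 17086 genes tested. These counts had the same dispersion for all genes, no outlying library and no length trend, and the members changed by less than 4-fold. The simulation therefore checks the code, and does not measure recovery or false calls for the members.

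The members and lists were chosen with earlier results of these data known. Named were all members, from each list the genes past both criteria (where over 4, the 2 largest rises and falls, and where none, the 2 largest changes), and the 3 genes most like H2-K1, Tap1 and Nlrc5 among those at a mean of at least 5 FPKM. Some genes that this rule names are not reported here.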

Additional observations from a re-analysis of the deposited data

Results flagged for a closer look

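In 12 of the 20 sets of 4 mature values examined (CPM and FPKM of the 10 genes), mature replicate 3 lay far from the other 3 libraries, where chance flags about 1 in 20. Its gap to the nearest of the others, divided by the range of the group, was compared with Dixon's 95% critical value. For CPM this share was 0.9085 in H2-K1, 0.8452 in H2-D1, 0.9658 in H2-T23, 0.8293 in B2m and 0.8569 in Tap2, where the library was highest, and 0.8759 in Erap1 and 0.8471 in Nlrc5, where it was lowest. For FPKM it was 0.908 in H2-K1, 0.9389 in H2-T23, 0.8638 in Tap2, 0.8537 in Erap1 and 0.8479 in Nlrc5. Since all sets come from the same 4 libraries, they are not independent, and the cause was not tested.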

How the results depend on the processing

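The number of members that passed the test was 3 and ranged from 2 to 6 over 17 alternatives. It was 5 in limma on log2(FPKM + 1) and 5 on log2(FPKM + 0.1), where H2-K1 and Tap2 joined, and 3 to 6 when each library was left out, with 6 only without mature replicate 3. No member passed both criteria in any of them. The count of all genes past both criteria was 4037, and 1768, 2561 and 1716 in limma with a pseudocount of 1, of 0.1 and without a filter, against 3646 to 4052 when each library was left out. Of the wider lists 42 genes passed, 17 with the fold criterion and 37 to 48 when each library was left out. H2-D1 turned sign when mature replicate 3 was left out (-0.064 to 0.108 over the left-out libraries), B2m too (-0.062 to 0.094) and also with the length offset (-0.092), and Erap1 as well (-0.175 to 0.003). None of these 3 genes passed in any alternative. The adjusted p of Tapbpl was 3.23e-12 to 0.00492 over its alternatives. Tap2 passed in 6 of 17 alternatives, among them upper quartile scaling (0.37, edgeR adjusted p = 0.028), which moved the median of all genes from 0.0546 to 0.165. With that scaling 4811 genes passed as higher and 3388 as lower in mature cells, against 4047 and 4006 with TMM. Same-numbered samples did not deviate together (r = 0.0285, -0.00114 and 0.0144), and not every sample correlated best with its own number. With a replicate block on replicates 1 to 3, 2 members passed (H2-T23 and Tapbpl) against 3 on the same libraries without the block (a fit added after seeing the data), Tap1 being at 0.29 (edgeR adjusted p = 0.0742). The causes of these changes were not tested. Counting depth is no limit for the members, but 3 and 4 libraries, of which 1 stands apart, limit the precision.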

Other observations

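Across the 7 libraries the members fell into profiles that the fold changes alone do not show, given as Pearson's r of log2 CPM over libraries that share groups and mature replicate 3. H2-D1 and B2m followed each other closely (r = 0.99), and so did Tap1 and Tapbpl (r = 0.99), while Tap1 and B2m did not (r = 0.23). Nlrc5 was opposite to H2-D1 and B2m (r = -0.92 for each) and near 0 with Tap1 (r = 0.08) and Tapbpl (r = 0.04). Mature replicate 3 was the lowest library for Nlrc5 (71.8 CPM) and the highest for H2-D1 (3822 CPM) and B2m (3998 CPM). No r without that library is given.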
